A study of Mus musculus with 6 samples.

Results

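The PYHIN genes are a family of interferon-inducible genes that lie side by side on mouse chromosome 1. For this account, 10 of them were taken by symbol from the deposited count tables: Ifi203, Ifi204, Ifi206, Ifi207, Ifi208, Ifi209, Ifi211, Ifi213, Mndal and Aim2. All 10 were present once among the 55401 genes listed. The samples were germinal centre B cells sorted from spleens of wild-type (WT) C57BL/6 mice that had received sheep red blood cells (SRBC) into the peritoneal cavity, had been challenged on day 5 and were killed on day 12. They formed 2 groups, called DN and DP in the labels, with 3 libraries each and 1 batch label. Immunisation, strain and genotype were the same in both groups, no age is given, and the labels do not say which surface markers DN and DP stand for. According to the design text both subsets were taken from each of 3 mice, without a label that links libraries of 1 mouse. Spread among the 3 libraries of a group, which is all the p-values rest on, could be technical.

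Proteins of this family carry a pyrin domain, which binds other pyrin domains, a HIN domain, which binds DNA, or both. AIM2 senses double-stranded DNA in the cytosol and assembles an inflammasome with the adaptor ASC and caspase-1, while other members act mostly in the nucleus, in DNA sensing and in control of transcription and growth. The family is known from macrophages treated with interferon, and several members are also transcribed in lymphocytes. Tandem duplication has made the mouse locus larger than the human one, so that neighbouring genes share stretches of sequence.

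Each DN library held 8904415 to 11897360 gene counts, and each DP library 17509384 to 20538024. Levels are given as CPM, that is counts scaled to the library total times the composition (TMM) factor of edgeR, as mean ± SD over n = 3 libraries unless single libraries are listed in replicate order. A floor of 3 counts stood at 0.236 to 0.315 CPM in DN and 0.155 to 0.183 CPM in DP, which covers counting error only. Each change is a log2 ratio of DP to DN ± SE. Its adjusted p is from the edgeR quasi-likelihood test over 11296 genes, and calls were made at 0.05. Of these genes 4243 (37.6%) were called lower in DP and 4328 (38.3%) higher, 75.9% in either direction. Scaled by library totals alone, 5359 were lower and 3288 higher, since the median of all genes then shifts by -0.20. Markers of the labelled cells were present, with the B cell receptor component Cd79a at 109.5 and 40.6 CPM in DN and DP, and the T cell marker Cd3e at 0.432 and 0.0401 CPM. The 14 T and NK cell markers summed to 50.3 to 58.8 CPM in DN and 58.3 to 60.9 CPM in DP, nearly all from the kinase gene Lck (50.8 and 57.8 CPM, 0.19 ± 0.06). All 7 B cell markers tested and all 10 germinal centre markers tested were lower in DP, among them Bcl6 at 160 and 76.6 CPM.

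Nearly the whole family was lower in DP, and 1 member went the opposite way. Of the 9 members that passed the filter on low counts, 8 were called lower, beside 37.6% of all tested genes, and 1, Ifi211, was called higher, beside 38.3% of all tested genes. In all, 6 members fell at least 2-fold, beside 12.8% of all tested genes. The median over the tested members was -1.40, beside 0.0061 over all tested genes. The DP libraries lay wholly below the DN libraries for 8 of the tested members (38% of all tested genes) and wholly above them for Ifi211 (39%). Counts summed over the 10 members came to 792, 824 and 862 CPM in DN and 322, 309 and 326 CPM in DP. The sums did not overlap, and DN was 2.59-fold higher (exact permutation test, two-sided p = 0.1, which is the lowest value possible for 3 against 3). In bulk libraries, fewer cells that express a gene and less RNA per cell cannot be told apart.

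**Figure D1:**
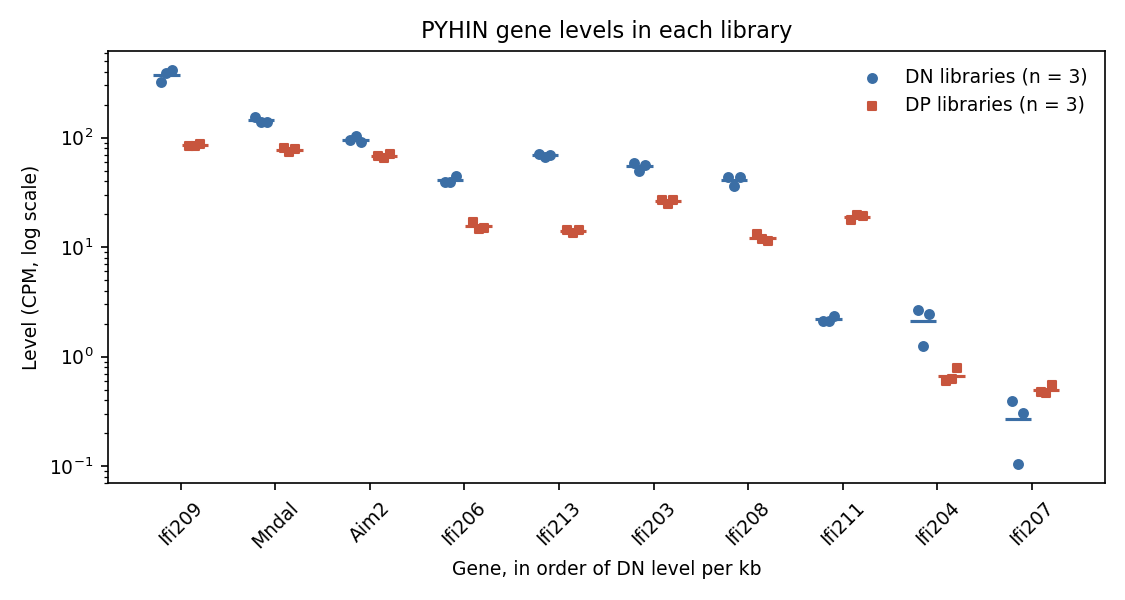
Level of each PYHIN gene (CPM, log scale) in the 3 DN libraries (circles) and 3 DP libraries (squares), with a line at each group mean and genes in order of DN level per kb. DP lies below DN for 8 genes, and above it for Ifi211 and for Ifi207, whose counts are near the floor.

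Aim2, the cytosolic DNA sensor, changed least. Its level was 94.6, 103 and 91.2 CPM in DN and 67.5, 65.6 and 70.9 CPM in DP. Every DP library was below every DN library, and the fall was -0.50 ± 0.05 (edgeR adjusted p = 1.34e-13). Aim2 did not pass a test for changes beyond 1.5-fold (edgeR glmTreat, adjusted p = 1). Ifi204, whose human relative IFI16 is a nuclear DNA sensor, was rare, at 2.67, 1.26 and 2.46 CPM in DN and 0.593, 0.622 and 0.794 CPM in DP. These values rest on 34, 12 and 24 counts in DN and on 10, 12 and 13 in DP. DN replicate 2 was the lowest of its group and still above all DP libraries, and the change was -1.70 ± 0.32 (adjusted p = 5.09e-06).

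Ifi209, listed by RefSeq under the synonyms Pyhin1 and Ifix, was the most abundant member and fell by the most CPM. It stood at 326, 387 and 412 CPM in DN and at 84.0, 83.2 and 88.1 CPM in DP. DN replicate 1 was the lowest of its group, yet far above all DP libraries, and Ifi209 fell by 2.14 ± 0.09 on the log2 scale (adjusted p = 2.74e-07). Mndal, a relative of the human myeloid nuclear differentiation antigen, stood at 154, 139 and 140 CPM in DN and 80.1, 74.2 and 78.5 CPM in DP. The groups did not overlap, and Mndal fell by 0.90 ± 0.05 (adjusted p = 9.55e-26). Ifi203, which encodes a nuclear HIN protein, fell by 1.07 ± 0.07 from 54.8 ± 4.54 to 26.3 ± 1.12 CPM (adjusted p = 4.50e-22).

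Ifi213 and Ifi208, which RefSeq also lists as Pydc4 and Pydc3, share much of their promoters with each other and with Ifi206. Ifi213 stood at 70.3, 67.2 and 69.2 CPM in DN and 14.5, 13.5 and 14.2 CPM in DP. The DN libraries were close together and 4.91-fold above DP on average, and the fall of 2.30 ± 0.07 had the smallest adjusted p of the family (6.82e-38). Ifi208 fell by 1.77 ± 0.08 from 41.1 ± 4.26 to 12.1 ± 0.976 CPM (adjusted p = 1.59e-27). Ifi206 fell by 1.40 ± 0.08 from 41.1 ± 2.93 to 15.6 ± 1.18 CPM (adjusted p = 3.71e-24).

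Ifi211, which RefSeq also lists as Mnda and Ifi205b, rose. It had 27, 20 and 23 counts in DN and 298, 383 and 315 in DP. That is 2.12, 2.10 and 2.36 CPM in DN against 17.7, 19.8 and 19.2 CPM in DP, so every DP library was far above every DN library. The change was 3.11 ± 0.15 (adjusted p = 7.19e-28), and the ratio of summed counts was 8.67 with a 95% exact counting interval of 6.80 to 11.2. Ifi211 ranked 94 of 11296 tested genes by size of rise. Ifi207, a PYHIN gene known from macrophages, had 5, 1 and 3 counts in DN and 8, 9 and 9 in DP and did not pass the filter. At 0.393, 0.105 and 0.308 CPM in DN and 0.475, 0.466 and 0.550 CPM in DP it was near the floor. The ratio of DP to DN was 1.76 with a 95% exact counting interval of 0.799 to 4.27, so a difference was not detectable at this depth.

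Divided by annotated exon length, the order of levels differed between the groups. In DN, Ifi209 led at 106 ± 12.4 CPM per kb, followed by Mndal at 39.8 ± 2.37 and Aim2 at 27.5 ± 1.66. Ifi206 (13.4 ± 0.960), Ifi213 (10.1 ± 0.228), Ifi203 (8.18 ± 0.677) and Ifi208 (7.82 ± 0.811) came next, and libraries of the last pair overlapped. Ifi211 (1.23 ± 0.0810), Ifi204 (0.599 ± 0.214) and Ifi207 (0.0785 ± 0.0432) were lowest. In DP, Ifi209 (24.0 ± 0.742), Mndal (21.4 ± 0.833) and Aim2 (19.4 ± 0.775) were closer to each other, without overlap. Ifi211 came next at 10.6 ± 0.623 CPM per kb, above Ifi206 (5.10 ± 0.385), Ifi203 (3.92 ± 0.168), Ifi208 (2.31 ± 0.186) and Ifi213 (2.06 ± 0.0773). Ifi204 (0.188 ± 0.0305) and Ifi207 (0.145 ± 0.0135) remained last. Lengths include stretches shared with other genes, and the length of Mndal is that of an earlier version of its gene model.

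The makeup of the family's reads differed accordingly. The share of Ifi209 in the summed counts was 41.2%, 47.0% and 47.8% in DN and 26.1%, 26.9% and 27.1% in DP. Aim2 made up 11.7% ± 0.964 in DN and 21.3% ± 0.419 in DP, and Mndal 17.5% ± 1.72 and 24.3% ± 0.454. Ifi211 made up 0.266% ± 0.00977 and 5.94% ± 0.467, whereas Ifi213 went from 8.35% ± 0.458 to 4.41% ± 0.0749. Groups did not overlap for any of these 5 genes, with an exact two-sided permutation p of 0.1 each, the smallest possible (0.125 adjusted over the 10 members). The same held for Ifi203 (6.65% in DN and 8.25% in DP), Ifi208 (4.99% and 3.81%) and the rare Ifi207 (0.0327% and 0.156%). Shares are relative to the family sum, and those of Aim2, Mndal and Ifi203 rose although their CPM fell. The share of Ifi206 was 4.97% ± 0.196 in DN and 4.88% ± 0.325 in DP, a difference within the spread of the libraries (exact p = 0.7).

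**Figure D2:**
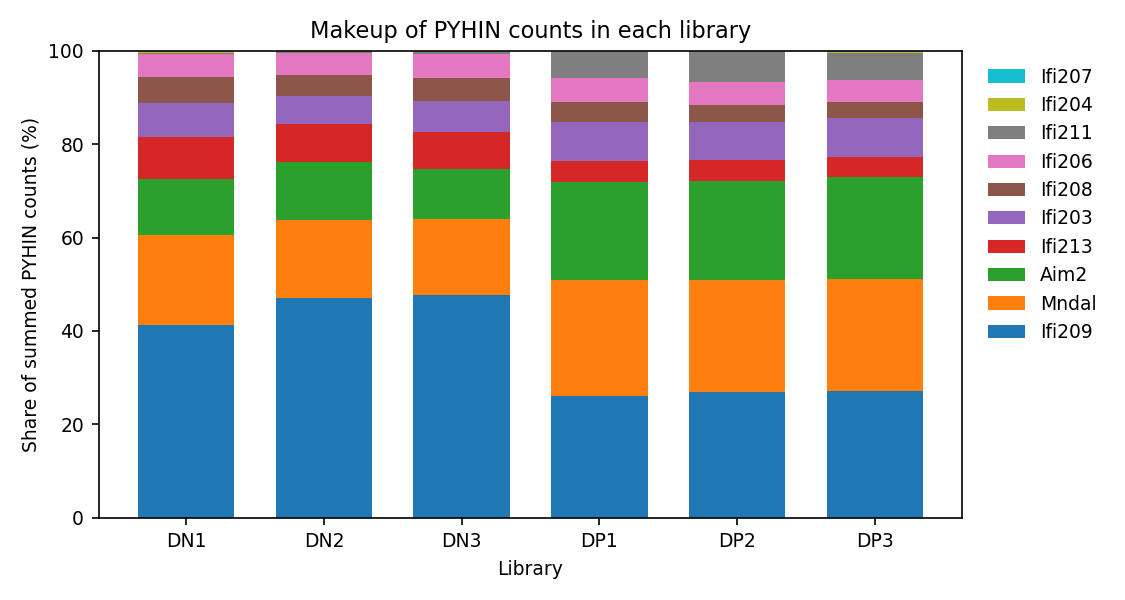
Share of each gene (%) in the counts summed over the 10 PYHIN members, 1 bar per library. The DP bars hold less Ifi209 and Ifi213 and more Aim2, Mndal and Ifi211 than the DN bars.

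All members lie within 1 cluster on chromosome 1, which with 4 further family genes spans 681 kb of mm10 in GENCODE M21. Aim2 (ENSMUSG00000037860.15) lies at its left end from 173350879 to 173466040 on the plus strand. Ifi209 (ENSMUSG00000043263.13) lies from 173630917 to 173647928, also on the plus strand, and Ifi213 (ENSMUSG00000073491.11) from 173566283 to 173599274 on the minus strand. Ifi211 (ENSMUSG00000026536.9) lies from 173896345 to 173913046 on the minus strand. To its right lies Ifi203 (173920407 to 173942672), transcribed on the same strand and lower in DP. The M21 model of Mndal (173849126 to 173942491) begins to the left of Ifi211 and spans it, but no exon base of Ifi211 belongs to another gene, and Mndal and Ifi203 share 37 exon bases. All 10 members are annotated as protein coding, and none shares exon bases with a gene on the other strand.

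**Figure D3:**
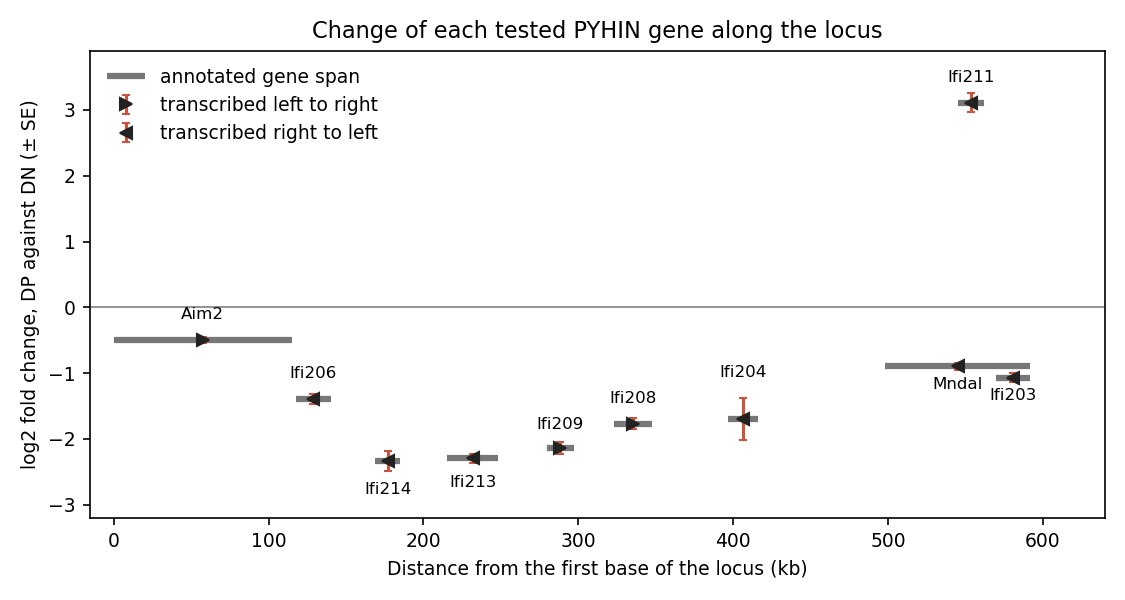
Log2 fold change of DP against DN (± SE) of each tested PYHIN gene, including Ifi214, against distance along the locus (kb). Grey bars span the annotated genes and arrowheads show their direction of transcription; Ifi211 at 3.11 stands above neighbours between -0.90 and -1.07.

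Among the other PYHIN genes of the cluster, Ifi214 averaged 11.3 ± 0.865 CPM over the DN libraries and 2.23 ± 0.152 CPM over the DP libraries. It fell by 2.34 ± 0.16 (adjusted p = 1.69e-20), close to Ifi209 and Ifi213. Ifi202b and the pseudogene Ifi203-ps had 0 counts in all 6 libraries, and Ifi205 had 7, 4 and 4 counts in DN and 4, 6 and 6 in DP. Beyond the ends of the cluster, the nearby protein-coding genes Cadm3, Dusp23, Fcrl6, Olfr433 and Olfr427 had at most 5 counts each over all libraries.

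Near-identical copies limit what was counted. Of all 100-base stretches in the annotated transcripts of Ifi211, 56.9% also occur in transcripts of another gene, and 37.2% in those of Ifi205. The files list reads without a unique alignment in a row of their own, which held 3.69% to 3.76% of all counts per library in DN and 3.37% to 3.41% in DP. Ifi205, the copy closest to Ifi211, had 15 counts in DN and 16 in DP, a ratio of 0.650 for DP to DN after scaling (95% exact counting interval 0.301 to 1.41). The share of such stretches was 16.9% for Ifi209, all of them also in Ifi214, and 13.1% for Ifi206 and 10.7% for Ifi204. It lay between 0% (Aim2) and 6.38% (Mndal) for the other members. By this measure the values for Ifi211, followed by Ifi209, are the least certain of the members. The read length is not given in the sources used here.

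The promoters of most members share a short element. Interferon acts on its target genes through the interferon-stimulated response element, whose core is searched here as GAAA, any 2 bases and GAAA, on both strands, in windows of 300 bases (250 before to 50 after the start, RefSeq, GRCm38.p6). The table held windows for 9 members. A match in at least 1 window was found for 7 of them (Ifi203, Ifi206, Ifi207, Ifi208, Ifi211, Ifi213 and Mndal). Among all 32851 windows, each counted singly, 3.44% held one. Mndal and Ifi203 have 2 windows each, and in Ifi203 only 1 of the 2 matched, so members and single windows are unlike units. The ETS-IRF composite (GGAA, any 2 bases and GAAA), through which IRF4 and IRF8 bind together with PU.1, and the STAT site TTCNNNGAA matched in none of the 9, beside 2.71% and 8.30% of all windows. No overlap between motifs arose, since only 1 motif matched in the members. The windows of Ifi211, Ifi207, Ifi213 and Ifi209 are shown here without their last 50 bases, because Ifi211 rose, Ifi207 has the promoter most like it, Ifi213 fell and Ifi209 has no match. Capitals mark the core.
Ifi211, chr1:173913047-173913296, minus strand: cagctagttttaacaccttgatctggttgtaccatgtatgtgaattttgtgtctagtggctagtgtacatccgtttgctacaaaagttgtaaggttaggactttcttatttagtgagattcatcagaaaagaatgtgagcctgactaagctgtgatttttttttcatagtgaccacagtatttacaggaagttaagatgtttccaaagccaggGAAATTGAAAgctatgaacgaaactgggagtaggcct
Ifi207, chr1:173741810-173742059, minus strand: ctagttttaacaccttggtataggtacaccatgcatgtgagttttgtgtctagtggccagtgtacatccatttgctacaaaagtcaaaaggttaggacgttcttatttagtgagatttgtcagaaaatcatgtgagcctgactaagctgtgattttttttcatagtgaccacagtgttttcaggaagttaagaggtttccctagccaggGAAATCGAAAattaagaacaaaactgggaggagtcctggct
Ifi213, chr1:173599273-173599522, minus strand: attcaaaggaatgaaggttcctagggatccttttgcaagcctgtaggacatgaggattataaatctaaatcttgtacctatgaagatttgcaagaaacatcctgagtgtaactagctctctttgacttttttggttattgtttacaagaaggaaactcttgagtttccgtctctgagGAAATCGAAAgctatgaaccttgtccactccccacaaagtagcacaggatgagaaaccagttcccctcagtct
Ifi209, chr1:173630609-173630858, plus strand: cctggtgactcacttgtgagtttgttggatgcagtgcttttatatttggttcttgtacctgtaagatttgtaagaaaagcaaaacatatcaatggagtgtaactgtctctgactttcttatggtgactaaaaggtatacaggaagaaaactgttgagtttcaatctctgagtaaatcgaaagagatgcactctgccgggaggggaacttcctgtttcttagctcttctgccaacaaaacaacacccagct

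The core began 37 bases before the start in Ifi211, 41 in Ifi207 and 73 in Ifi213. In 6 members (Ifi203, Ifi206, Ifi207, Ifi208, Ifi213 and Mndal) and in Ifi214 it read GAAATCGAAA. Only 16 of the 32851 windows held this string, 7 of them windows of these genes. In Ifi211, the member that rose, the core read GAAATTGAAA, which differs by C6T, counted from 1 at the first base of the core. Ifi205 has the same letters as Ifi211, and 38 windows held them. The other window of Mndal holds a core with other letters on the opposite strand. Ifi209 has no exact match, but sites with 1 mismatch begin 177, 93, 79 and 43 bases before its start. At 79 bases before its start, where Ifi214 has an exact match, it has 1 mismatch (G1T), although their windows are 95.35% identical and both genes fell. The windows of Ifi207 and Ifi211 are 85.9% identical, and those of Ifi213 and Ifi208 89.5%. Mndal and Ifi203 have 2 windows each, of which 1 pair is 90.7% identical and the others 45.9% to 47.95%. The pairs at 85.9%, 89.5% and 90.7% are among the closest. Over all 89 pairs of PYHIN windows the median identity was 47.9% and the lowest 35.8%. Windows of PYHIN genes were 39.0% to 50.6% identical to those of the flanking genes, a range that includes the median PYHIN pair. A match describes letters in this window and not a site in use, and both 10-base strings were picked out after the matches were seen.

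Related interferon-induced genes fell as well, by different amounts, beside 37.6% of all tested genes called lower and 38.3% called higher. All 5 tested IFIT genes, which encode sensors of foreign RNA, were lower in DP, with a median of -2.59, and Ifit3 fell from 72.6 to 9.67 CPM. Of 38 other interferon-stimulated genes tested, 33 were lower and 3 higher (35 and 1 with library totals alone), with a median of -1.10. Samd9l, an antiviral restriction factor, went from 202 to 50.1 CPM, and the tetherin gene Bst2 rose from 9.74 to 16.8 CPM. The log2 ratio of summed PYHIN counts to summed IFIT counts was 1.86, 1.85 and 1.97 in DN and 3.62, 3.59 and 3.71 in DP. The difference of 1.75 means that the PYHIN sum fell less than the IFIT sum (exact two-sided permutation p = 0.1), and it was 1.04 without Ifit1bl1, the most abundant IFIT gene in DN (101 CPM, against 2.72 CPM in DP). Against the summed interferon-stimulated genes, the log2 ratio was -1.58 ± 0.0871 in DN and -2.01 ± 0.0328 in DP, so the PYHIN sum fell slightly more (exact p = 0.1). That contrast rests on Ifi209: without it the PYHIN sum changed by -0.95, beside -0.94 for the interferon-stimulated genes.

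**Figure D4:**
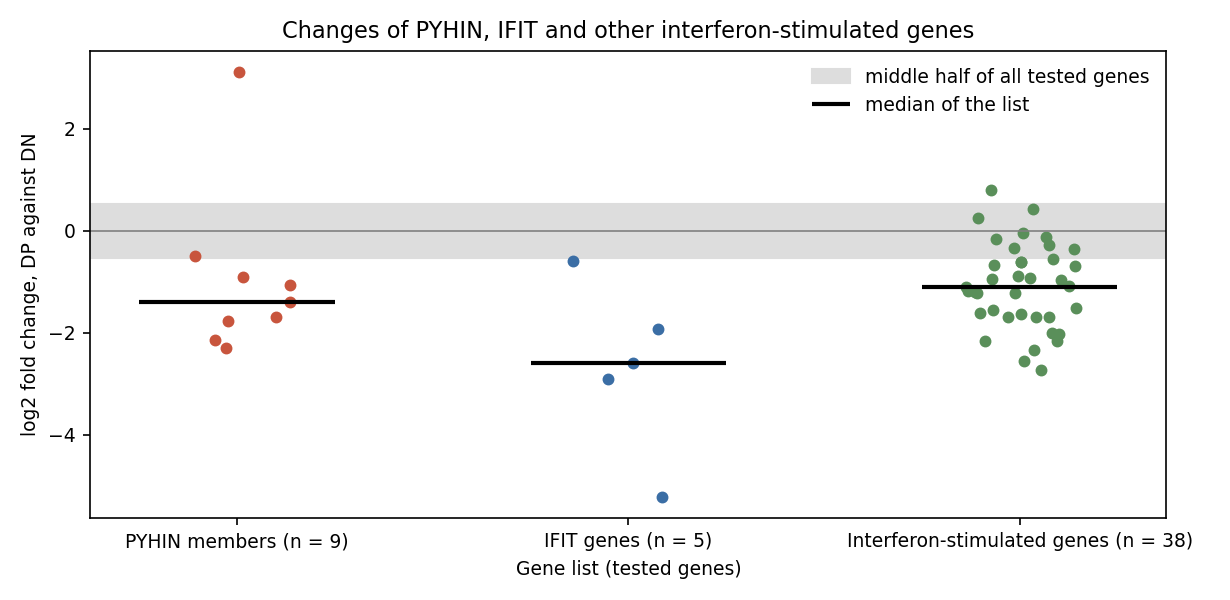
Log2 fold change of DP against DN for the tested PYHIN members (n = 9), IFIT genes (n = 5) and other interferon-stimulated genes (n = 38), with a black line at each median and a grey band for the middle 50% of all tested genes. The medians are -1.40, -2.59 and -1.10, and Ifi211 is the highest point.

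Of 16 genes for interferon receptors and signalling, 11 were lower in DP and 3 higher, beside 37.6% and 38.3% of all tested genes. Their median was -0.42. The interferon-activated factors fell: Irf7 from 112 to 39.2 CPM (-1.52 ± 0.05), Stat2 by 1.18 ± 0.06, Irf9 by 0.78 ± 0.05 and Irf1 by 0.60 ± 0.07. The type I receptor chain Ifnar1 did not pass at 13.2 ± 0.526 and 14.6 ± 2.35 CPM (adjusted p = 0.279), while the other chain, Ifnar2, rose from 2.78 to 7.24 CPM (1.39 ± 0.17). In the IRF family, 5 of 8 genes were lower and 2 higher, or 6 and 1 with library totals alone. Irf4 rose from 12.1 to 70.5 CPM (2.54 ± 0.07). Irf8 was at 611 and 670 CPM (0.13 ± 0.04), a difference that turned to -0.06 with library totals alone.

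The genes for ASC and caspase-1, with which AIM2 assembles, changed little, while some other inflammasome genes changed more. Among 8 tested inflammasome genes 6 were lower and 2 higher, beside 37.6% and 38.3% of all tested genes, with a median of -0.33. Pycard, which encodes the adaptor ASC, averaged 26.9 ± 1.63 CPM for DN and 22.1 ± 0.639 CPM for DP (-0.28 ± 0.08, adjusted p = 0.00112). Caspase-1, Casp1, fell by 0.37 ± 0.06 from 52.7 to 40.9 CPM. The pore-forming effector Gsdmd fell by 1.15 ± 0.11 and the flagellin-linked sensor Nlrc4 by 1.65 ± 0.11, and Casp4, which binds bacterial lipopolysaccharide, rose by 1.13 ± 0.11. The inflammasome cytokine genes Il1b and Il18 were at 0.260 CPM or less in both groups. Of 18 genes of cytosolic nucleic acid sensing, 5 were lower and 10 higher (8 and 8 with library totals alone), with a median of 0.29. Sting1, the adaptor of cytosolic DNA sensing, rose from 8.71 to 11.3 CPM (0.37 ± 0.12), or 0.17 with library totals alone (adjusted p = 0.186). Cgas, the enzyme above it, was at 0.502 ± 0.102 and 0.707 ± 0.213 CPM and was not tested. The nucleotide hydrolase Samhd1 fell by 1.27 ± 0.04 and the Z-form nucleic acid sensor Zbp1 by 1.78 ± 0.06. Among the 10 genes of this list that were higher, Ikbke rose by 1.62 ± 0.13 and Banf1 by 1.14 ± 0.08.

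Markers of other cell types also differed between the groups, beside 37.6% of all tested genes called lower and 38.3% called higher. Of 20 macrophage and monocyte markers, 10 were tested, of which 9 were lower in DP and 1, Cd68, was higher (0.52 ± 0.22), a call lost under 9 of 18 alternatives. These included library totals alone, DESeq2, and leaving out DN replicate 2, DN replicate 3, DP replicate 1 or DP replicate 2. Their summed level was 37.7 to 41.7 CPM in DN and 18.5 to 22.4 CPM in DP, with Cd14 and Clec4f at 0 in every library and Csf1r at 3.07 and 1.53 CPM. The part of these cells in the fall of Ifi204 and the other members was not tested. Of 10 dendritic cell markers, 5 were tested and all were higher in DP beside Ifi211, 4 of them with library totals alone. Their sum was 627 to 665 CPM in DN and 716 to 747 CPM in DP, most of it Irf8 (611 and 670 CPM). The difference of Irf8 turned to -0.06 with library totals alone. Irf8 is also counted above in the IRF family, and Bst2 among the interferon-stimulated genes, so neither is particular to dendritic cells here. Zbtb46 had 0 counts in DN and 29, 33 and 27 in DP (1.69 CPM), and Itgax was at 0.312 and 0.783 CPM. Xcr1, Clec10a, Clec9a, Siglech and Ccr9, markers of dendritic cell subsets, were at 0 in all 3 DP libraries, and the part of dendritic cells in the rise of Ifi211 was not tested. Neutrophil markers summed to 3.99 CPM at most in DN and 1.04 CPM at most in DP, and erythroid markers to 62.1 to 72.5 and 15.9 to 18.3 CPM, with all 6 tested lower in DP. Of 7 plasma cell markers tested, 4 were higher in DP and 2 lower. Prdm1, the plasma cell regulator, rose from 1.26 to 3.50 CPM, Sdc1 from 0.468 to 1.51 CPM and Xbp1 from 113 to 140.1 CPM, with Irf4 as given above. Slamf7 fell from 216 to 95.8 CPM and the joining chain gene Jchain from 277 to 155 CPM. The part of these cells in the changes of the PYHIN genes was not tested.

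The genes whose profile over the 6 libraries lay closest to the mean profile of the 9 tested members were Arid4a, Paip2, Hip1, Kmt2e and Uvssa. Likeness was the Euclidean distance of mean-centred log2 CPM, which was 0.0745 for Arid4a and 0.106 for Uvssa. The 5 genes fell by 0.90 to 0.98. The mean profile includes Ifi211 and is therefore flatter than that of most members, and likeness over 6 libraries of 2 groups mostly reflects the difference between the groups.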

How the data were processed

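RNA libraries of germinal centre B cells were compared between DN and DP, 3 libraries each, grouped by title. The authors deposited 1 table of unnormalized read counts by gene for every library. Per the submitters' processing notes, Trim Galore 0.6.6, STAR 2.7.10a, HTSeq 0.13.5 and mm10 were used, with no settings given. The library kit is stranded per the labels' protocols, but how strand, annotation release and molecular identifiers were handled in counting is not given in the sources used. If duplicates were kept, counting intervals are too narrow.

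The 5 rows that name no gene held 12.4% to 12.9% of counts in DN and 9.47% to 9.61% in DP and were left out. The comparison of DP with DN used all 6 libraries in edgeR 4.0.16 (R 4.3.3). It used TMM factors, filterByExpr with a minimum count of 10, robust glmQLFit without a block, glmQLFTest and Benjamini-Hochberg adjusted p-values. Standard errors came from the fold change and its F statistic. Library pairs within a group differed by more than sampling noise (chi-square per degree of freedom 1.96 to 3.26), and all were kept. On counts simulated for this comparison (11152 genes after the filter), edgeR recovered 80% of 1.5-fold and 94% of 2-fold changes. There, 3.31% of calls fell on unchanged genes. Few genes were changed in that simulation and all had the same dispersion, whereas 75.9% of tested genes were called in the data. Its rates therefore cannot be carried over to the real comparison. Sums, shares and ratios were compared with exact two-sided permutation tests over libraries (scipy 1.17.1). Gene models, lengths and shared stretches came from GENCODE M21, and promoters from RefSeq. Sequence identity was taken from global alignments (biopython 1.88).

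Members and gene lists were chosen with earlier results of these data known. Named genes are the 10 members, other PYHIN genes of the locus, up to 4 genes of each list by smallest p, a set of interferon, inflammasome and cell markers, flanking genes and the 5 most like in profile. Il1b, Il18, Cd14, Clec4f, the dendritic cell markers at 0 and the genes of a list that rose against it were named after their values were seen. Alternatives were other scalings, filters, thresholds and tools (DESeq2 1.42.0, limma-voom 3.58.1), the replicate number as a block, each library left out, thinning and leaving out abundant genes. Some genes that this rule names are not reported here.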

Additional observations from a re-analysis of the deposited data

How the results depend on the processing

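Of 162 values of the 9 tested members under 18 alternatives, 161 kept their direction and their call, and none reversed. The exception was Aim2 tested against a minimum of 1.5-fold, where 7 members were called lower instead of 8. Ifi211 ranged from 2.91 to 3.18 and Ifi213 from -2.49 to -2.22. That threshold left 1912 of all genes called lower and 1964 higher. The change of the summed PYHIN level, -1.37 on the log2 scale, was -1.57 with library totals alone, -0.95 without Ifi209 and -1.46 without Ifi211, the last chosen after the data were seen. It ranged from -1.40 to -1.34 with 1 library left out. The PYHIN to IFIT difference was 1.04 without Ifit1bl1, also chosen afterwards, and 1.71 to 1.78 with 1 library left out. Same-numbered DN and DP libraries did not deviate together (correlations of 0.056, -0.0061 and -0.018), so the numbers do not show which libraries came from 1 mouse. With the replicate number as a block, the replicate block fit called 4251 genes lower and 4338 higher, and 8 members lower and 1 higher. Ifi207 was tested only with DESeq2 (0.87, adjusted p = 0.425) and without a filter (0.88, adjusted p = 0.29). Depth limits Ifi204, Ifi205 and Ifi207, with at most 34 counts in a library.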

Other observations

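Beside Ifi203-ps, 5 annotated pseudogenes lie within the PYHIN cluster. Of these, Gm18752, which lies beside Ifi208, had 18, 11 and 8 counts in DN and 4, 2 and 1 in DP, lower in every DP library although DP libraries are 1.88 times deeper on average. It was not tested. The other 4 had 1 count in all, from Gm38050.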
